A study of Mus musculus with 106 samples.

Results

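Quadriceps muscle of mice kept at room temperature (RT, 22 °C) was compared with brown adipose tissue (brown fat), brain, ileum and liver from mice kept at the same temperature, across all genes, to find which transcripts mark the muscle among these 5 organs. The comparison used 3 quadriceps libraries and 12 libraries of the other 4 tissues, 15 of the 106 libraries of a study of how organs respond to ambient temperature. All came from male wild-type C57BL/6J mice, labelled as 12 weeks old and 8 weeks old when the experiment began, which received no agent and served as RT controls of an experiment at 34 °C. Each quadriceps, brain, ileum and liver library pooled RNA of 2 mice, and the brain samples had the hypothalamus removed. The brown fat libraries came from 3 individual mice by the study's sampling sheet, whereas its methods give pools of 2 mice for every organ of that experiment. Another 3 RT quadriceps libraries, controls of an experiment at 10 °C with mice of another supplier, were kept out of the comparison and used as a check, and the values at 10 °C (2 weeks, reached in steps) and 34 °C (4 weeks) are given for the genes found. With 3 libraries a tissue, p-values measure the spread between these pools or single mice. The unit is whole tissue, in which fewer cells of a type and less RNA per cell cannot be told apart.

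Skeletal muscle fibres are long multinucleate cells packed with sarcomeres, in which myosin thick filaments pull on actin thin filaments when calcium binds troponin. Calcium is released from the sarcoplasmic reticulum through the ryanodine receptor after the membrane is depolarised at the neuromuscular junction, and it is pumped back by SERCA. The quadriceps of the mouse consists mainly of fast fibres, which burn glycogen, buffer ATP with creatine phosphate and carry their own isoforms of most contractile proteins.

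A gene was called higher or lower where edgeR's quasi-likelihood test gave a Benjamini-Hochberg adjusted p under 0.05 and a fold above 1.5. Among 15020 genes tested, quadriceps was higher than brown fat for 4139 (27.6%) and lower for 3995 (26.6%), and against brain it was higher for 5117 (34.1%) and lower for 5543 (36.9%). Against ileum, 5440 genes (36.2%) were higher and 5567 (37.1%) lower, and against liver 5173 (34.4%) were higher and 4690 (31.2%) lower. Some 1364 genes (9.08%) were higher in quadriceps than in all 4 tissues and 826 (5.5%) were lower than in all 4. The genes called higher in all 4 contrasts and at least 8-fold over each tissue are termed identity genes here, and there were 330 of them (2.2% of the genes tested). The split depended on the scaling. With library size alone, and no TMM scaling, the median gene shifted by -0.44 against brown fat, -1.05 against brain, -0.61 against ileum and 0.24 against liver on the log2 scale, and the calls became 2568 higher and 6272 lower, 2607 and 8721, 3913 and 7236, and 5825 and 4149, in that order of tissues. Under that scaling 751 genes were higher in all 4 tissues, 1599 were lower in all 4 and 274 were identity genes, of which 273 were among the 330.

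The libraries held 29545458 to 62880248 counts, and the quadriceps libraries 51515089, 54215578 and 40427068. Levels below are CPM after TMM scaling unless stated, a unit in which each library's scaled counts are set against the same total, and "quadriceps" values stand in the order of replicates 1 to 3. The tissue label was checked on the 14 textbook genes of fast fibre contraction, which took up 22.4, 24.4 and 23.55% of quadriceps counts and at most 0.543% in any library of the other tissues. Identity genes, whose share follows from how they were chosen, took up 45.35, 47.76 and 48.45% of all quadriceps counts, compared with 0.473 to 0.492% in brain, 0.231 to 0.317% in ileum and 0.0789 to 0.0804% in liver. Brown fat replicate 2 stood apart from its group. It gave 1.45% of its counts to identity genes, whereas the other brown fat libraries gave 0.302 and 0.301%, and the values without it are given with the brown fat libraries below.

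Of the 330 identity genes, 310 were protein coding and 17 were long noncoding or antisense transcripts. Their mean levels in quadriceps ran from 5.58 to 92034 CPM, with a median of 185.6 CPM compared with 12.7 CPM over all genes tested. All 330 were higher in each quadriceps library than in each library of the other tissues, which their selection largely fixes, and 12.8% of all genes tested had the same property. The rule just admitted Chrnb1 (8.02-fold over its nearest tissue), 1700001O22Rik (8.06-fold) and Ank1 (8.16-fold), and it just left out Twf2 (7.96-fold), Col7a1 (7.84-fold) and Nt5c1a (7.83-fold). For 156 of the 330 the mean over the 12 other libraries was under 1 CPM, so these passed the filter on low values only through quadriceps. Brown fat was the nearest tissue for 182 identity genes (55.2%), brain for 98 (29.7%), ileum for 38 (11.5%) and liver for 12 (3.64%).

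**Figure D1:**
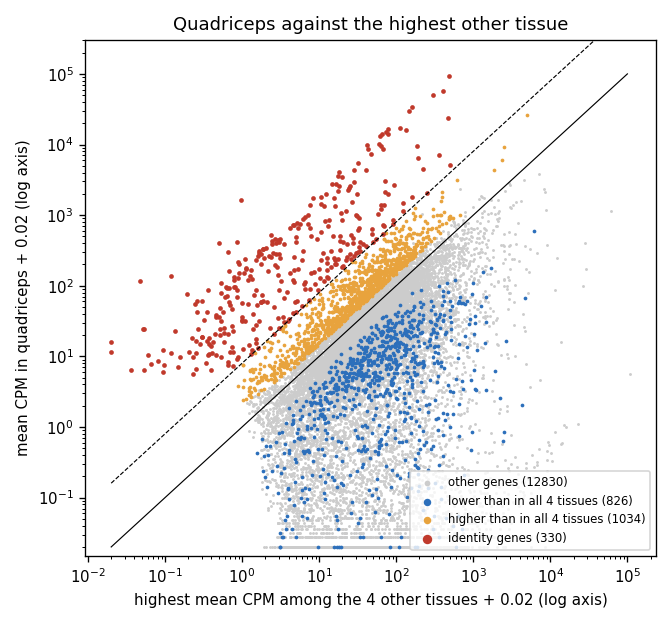
Mean CPM in quadriceps (vertical, log axis) against the highest mean CPM among brown fat, brain, ileum and liver (horizontal, log axis) for every gene tested, with 1 point a gene. The 330 identity genes lie above the 8-fold line, with quadriceps means from 5.58 to 92034 CPM.

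All 14 fast-fibre contractile genes tested were identity genes, with a median log2 fold change of 7.49 over the nearest tissue. Myh4, the myosin heavy chain of type IIB fibres (ENSMUSG00000057003, chr11:67238029-67260446, mm10), was measured at 75989, 98562 and 101551 CPM in quadriceps. In brown fat it stood at 0.121, 1457 and 1.80 CPM, and its means were 4.58 ± 7.30 CPM in brain, 0.11 ± 0.0437 in ileum and 0.191 ± 0.0305 in liver (SD, n = 3). Quadriceps and the other tissues did not overlap, and replicate 2 alone put brown fat above brain. The log2 fold change over brown fat was 7.56 (SE 2.49, adjusted p = 0.0156) and over brain 14.29 (SE 3.17, adjusted p = 0.00086). Atp2a1, the fast SERCA pump (ENSMUSG00000030730, chr7:126445858-126463108), stood at 48800.2, 53375 and 66916 CPM in quadriceps and 0.847, 1208 and 0.899 CPM in brown fat, a log2 fold change of 7.13 (SE 2.23, adjusted p = 0.0118). Tnnt3, fast troponin T (chr7:142498836-142516009), was at 27255, 31129.8 and 30210.4 CPM in quadriceps and 0.0908, 438 and 1.21 CPM in brown fat. Per kilobase of exon, Atp2a1 at 16210.5 CPM and Tnnt3 at 18656 CPM were among the 4 highest genes of the list, with Pvalb, the calcium buffer parvalbumin (15994 CPM per kilobase), and Tnnc2, fast troponin C (16310.5 CPM per kilobase). The quadriceps libraries stayed within 1.5-fold of each other for all of these genes.

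**Figure D2:**
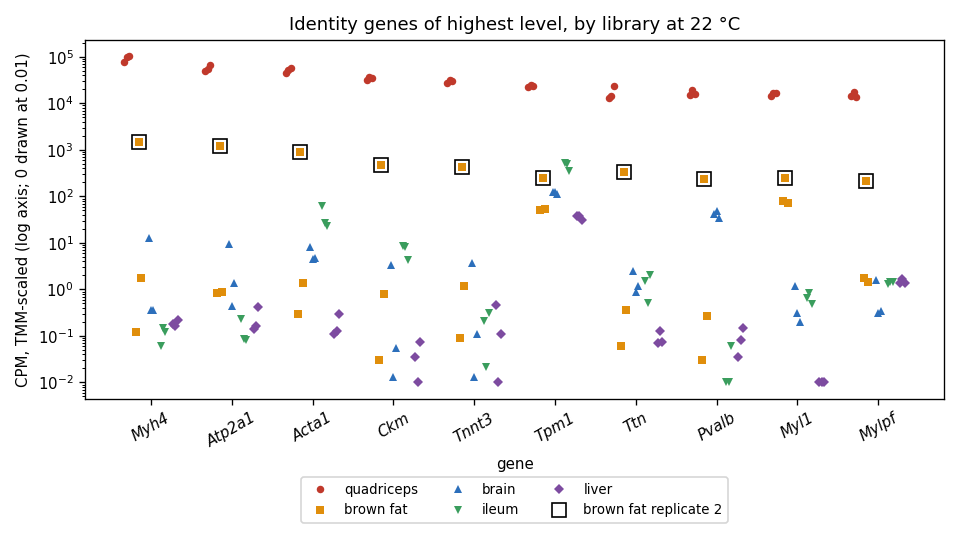
CPM on a log scale in each of the 15 libraries (points, shape and colour by tissue, values of 0 drawn at the foot of the axis) for the 10 identity genes with the highest mean CPM in quadriceps. Quadriceps points sit together at the top of every column, and brown fat replicate 2 sits apart from the other brown fat libraries, with Myh4 at 1457 CPM compared with 0.121 and 1.80.

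The promoters of 4 leading genes are shown because they carry the letters whose frequency was counted over the identity genes below, one each for a thick filament protein, a calcium pump, a thin filament protein and an energy buffer. Each window runs from 250 bases before to 50 bases after the RefSeq transcript start (GRCm38.p6), 5′ to 3′ on the gene's strand, with matches in capitals: the E-box (CANNTG), the MEF2 motif, the CArG box and the TATA element, whose letters TATAAA were searched on either strand. The windows are chr11:67237562-67237861 (plus strand) for Myh4, chr7:126463024-126463323 (minus strand) for Atp2a1, chr8:123894726-123895025 (minus strand) for Acta1 and chr7:19410844-19411143 (plus strand) for Ckm.
Myh4: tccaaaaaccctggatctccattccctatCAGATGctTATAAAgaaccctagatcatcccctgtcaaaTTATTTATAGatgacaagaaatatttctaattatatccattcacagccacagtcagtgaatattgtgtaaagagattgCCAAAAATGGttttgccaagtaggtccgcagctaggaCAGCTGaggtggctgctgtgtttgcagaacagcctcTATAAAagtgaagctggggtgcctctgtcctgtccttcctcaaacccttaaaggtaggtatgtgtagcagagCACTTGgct
Atp2a1: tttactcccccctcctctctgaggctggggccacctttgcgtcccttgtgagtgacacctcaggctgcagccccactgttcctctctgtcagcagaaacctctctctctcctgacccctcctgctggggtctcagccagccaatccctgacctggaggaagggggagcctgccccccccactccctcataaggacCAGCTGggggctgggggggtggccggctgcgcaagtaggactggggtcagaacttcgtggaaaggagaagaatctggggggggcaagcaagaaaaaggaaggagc
Acta1: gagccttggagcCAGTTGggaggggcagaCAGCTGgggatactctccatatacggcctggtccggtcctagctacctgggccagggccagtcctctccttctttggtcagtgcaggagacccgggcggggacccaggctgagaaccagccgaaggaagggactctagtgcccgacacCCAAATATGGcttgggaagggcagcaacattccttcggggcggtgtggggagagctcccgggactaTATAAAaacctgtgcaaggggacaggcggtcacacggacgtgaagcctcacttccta
Ckm: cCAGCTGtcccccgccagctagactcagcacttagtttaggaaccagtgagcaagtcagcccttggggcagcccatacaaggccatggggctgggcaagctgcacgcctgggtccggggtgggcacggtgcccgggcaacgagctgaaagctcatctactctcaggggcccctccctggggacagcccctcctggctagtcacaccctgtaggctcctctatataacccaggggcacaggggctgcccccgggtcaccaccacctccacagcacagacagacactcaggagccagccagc
The Myh4 window held 3 E-boxes, a MEF2 motif that overlaps a reverse TATAAA, a CArG box at position -104 from the start and TATAAA on the gene's strand at -213 and -31. The Acta1 window held 2 E-boxes and a CArG box at position -73 and a TATAAA at -7, and the Atp2a1 and Ckm windows held 1 E-box each, CAGCTG in both.

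Promoter windows were matched for 246 identity genes, 300 windows in all, and were set beside 14971 windows of the genes tested and 32851 windows of all genes, with both strands searched. The MEF2 motif stood in 42 of the 300 identity windows (14%), compared with 1.95% of the windows of genes tested and 3.19% of all windows. The CArG box, the site of serum response factor, stood in 15 (5.0%), compared with 1.38 and 1.63%. E-boxes of any kind were common, at 79.7% of identity windows, 65.4% of those tested and 72.3% of all, and the form CAGCTG, preferred by myogenic bHLH factors, stood in 32, 16.2 and 16.3%. The form CACCTG stood in 26.3, 19.1 and 20.2%, and TATAAA in 17, 8.07 and 13.6%. The identity windows had a median GC content of 55.8%, lower than the 60.0% of the windows tested, and the part of base composition in these shares was not tested. A match of letters is a description and not a bound site.

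The slow-fibre list was called in part. Of 12 genes tested, 7 were identity genes, while Myh7, Tnni1, Tpm3, Atp2a2 and Myl6b were not called higher in all 4. Myh7, the type I myosin heavy chain, stood at 268, 114 and 524 CPM in quadriceps and 0, 91.3 and 0.0225 CPM in brown fat. Its log2 fold change over brown fat was 3.31 (SE 1.52, adjusted p = 0.0751), past the fold but not the test, and Myh7 and Tnni1 became identity genes when brown fat replicate 2 was left out. Mybpc1, slow myosin-binding protein C, reached 1746, 1705 and 2461 CPM, and Tnnc1, the troponin C of slow fibres, 41.3, 17.3 and 69.6 CPM. Atp2a2, the SERCA pump of slow fibres and many other cells, was highest in brain (681 ± 45.9 CPM) and stood at 210.1 ± 109 CPM in quadriceps. Replicate 2 of quadriceps was the lowest of the 3 for all 12 slow genes, and replicate 3 was the highest for 10 of them.

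The 4 adult myosin heavy chains can be set side by side per kilobase of exon, although near-identical stretches in this family may let reads pass between members. They were picked out after their values had been seen. Myh4 made up 88.3 to 92.4% of their summed level per kilobase in the 3 quadriceps libraries, Myh1 (type IIX) 6.09 to 9.05%, Myh2 (type IIA) 1.46 to 2.29% and Myh7 0.0749 to 0.318%. In brown fat replicate 2 the same shares were 82.3, 10.7, 3.44 and 3.60%. The order of the 3 fast myosins was thus the same in that library, and the share of Myh7 was higher in it than in quadriceps, while its level was 30.2% of that in quadriceps. Of 4 developmental genes tested, Myh8 (perinatal myosin) was an identity gene at 153, 174 and 320.4 CPM, and Myh3 (embryonic myosin) was called higher in all 4 tissues at 5.12, 5.62 and 11.1 CPM, a call lost at a log2 fold change of 0.63 with library size alone. Myl4 and Ncam1 were not called higher, with the highest levels in brain, and Chrng, Tmem8c (myomaker) and Gm7325 (myomixer), genes of immature or fusing fibres, fell below the filter.

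Of 35 sarcomere scaffold genes tested, 34 were higher in all 4 tissues and 33 were identity genes, with a median log2 fold change of 6.59 over the nearest tissue. Acta1, skeletal actin (chr8:123891769-123894751), stood at 43972, 51925 and 57040.4 CPM, and its nearest tissue was brown fat at 0.303, 908 and 1.37 CPM. Ttn, the giant spring protein titin, stood at 13033, 14361 and 23858 CPM, Tcap, which caps titin at the Z-disc, at 3095, 2878 and 2778 CPM, and Myoz1, a fast-fibre Z-disc protein, at 3079, 3607 and 3548 CPM. Titin was highest in replicate 3 by more than 1.5-fold, while Tcap and Myoz1 differed little between libraries. Des, the intermediate filament desmin, was nearest in ileum, whose wall holds smooth muscle: 4586, 4400.4 and 4451 CPM in quadriceps and 284, 261 and 121 CPM in ileum. The exception was Csrp3, a muscle LIM protein, which stood at 26.2, 25.6 and 34.2 CPM in quadriceps but at 29.2, 40.7 and 55.5 CPM in liver, a log2 fold change of -0.54 (SE 1.12, adjusted p = 0.683).

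Excitation and calcium release followed the same pattern, with 18 of 19 tested genes higher in all 4 tissues and 16 identity genes. Casq1, the calcium store of the fast sarcoplasmic reticulum, stood at 4523, 5764 and 6006 CPM, Srl (sarcalumenin) at 2534, 2928 and 3572 CPM, Tmem38a (a reticulum cation channel) at 1932, 2011 and 2092 CPM and Hrc at 1298, 1414 and 1538 CPM. All 3 libraries were close for each of them, and Tmem38a was nearest in brain at 78.02 ± 0.319 CPM. Cacng1, the gamma subunit of the muscle calcium channel, was among the 10 identity genes with the largest margin, at 279, 327 and 306 CPM and a log2 fold change of 8.85 over brown fat. Fxyd1, phospholemman, was not called, at 300.2 ± 8.07 CPM in quadriceps and 342 ± 23.1 CPM in liver. Sln (sarcolipin), an inhibitor of SERCA, fell below the filter.

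At the neuromuscular junction, 7 of 8 tested genes were higher in all 4 tissues and 5 were identity genes. Rapsn, which clusters acetylcholine receptors, stood at 39.5, 38.4 and 38.02 CPM, Chrnb1 (receptor beta subunit) at 26.7, 33.8 and 33.1 CPM, Chrne (adult epsilon subunit) at 15.2, 17.6 and 22.8 CPM and Musk (the kinase that organises the synapse) at 13.9, 22.7 and 15.4 CPM. Of these 4, Rapsn differed least between the libraries and Musk most. Lrp4, the agrin receptor, was lower in quadriceps (18 ± 1.21 CPM) than in liver (54.2 ± 11.5 CPM), ileum (35.99 ± 8.18 CPM) and brain (39.3 ± 4.43 CPM). Chrnd fell below the filter.

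Myogenic regulators, the transcription factors that set up and maintain the fibre, were next. Of 16 tested, 14 were higher in all 4 tissues and 8 were identity genes. Myod1, the founding myogenic bHLH factor, stood at 21.2, 30.5 and 22.2 CPM and Myf6, its partner in mature fibres, at 90.3, 104 and 87.99 CPM. Myod1 was at 0 counts in all ileum and liver libraries, so it was at least 1204-fold higher than in ileum and at least 649-fold higher than in liver (against a floor of 3 counts over the group). Smyd1, a muscle methyltransferase, stood at 797, 939.5 and 1055 CPM, Tbx15, a T-box factor of fast fibres, at 363, 458 and 433 CPM, Vgll2 (a TEAD cofactor) at 40.4, 36.2 and 48.9 CPM and Lbx1 (a limb muscle homeobox factor) at 26.2, 23.2 and 23.3 CPM. The homeobox factor Six4 and its Eya partners, which act together in muscle precursors, were called as well. Six4 stood at 24, 30.8 and 41.7 CPM, Eya4 at 38.6, 48.9 and 63.2 CPM and Eya1 at 30.8, 34.4 and 41.6 CPM. Tead4 was called at 5.64, 9.18 and 9.98 CPM. The MEF2 factors were called but stood close to brain. Mef2c was at 537, 568 and 844 CPM in quadriceps and 320.1, 298 and 368 CPM in brain, a log2 fold change of 0.98 (SE 0.37, adjusted p = 0.0236), Mef2d gave 1.25 (SE 0.13, adjusted p = 7.32e-07) and Mef2a 0.75 (SE 0.11, adjusted p = 1.86e-05). With library size alone, Mef2a and Mef2c turned to -0.26 and -0.04 on the log2 scale against brain, and Mef2d lost its call at 0.25. Barx2 at 4.72, 3.66 and 5.25 CPM was not called, and ileum held 12.8 ± 5.02 CPM. Myf5, Myog, Pax7 and Pax3, which mark precursors and differentiating myoblasts, fell below the filter.

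**Figure D3:**
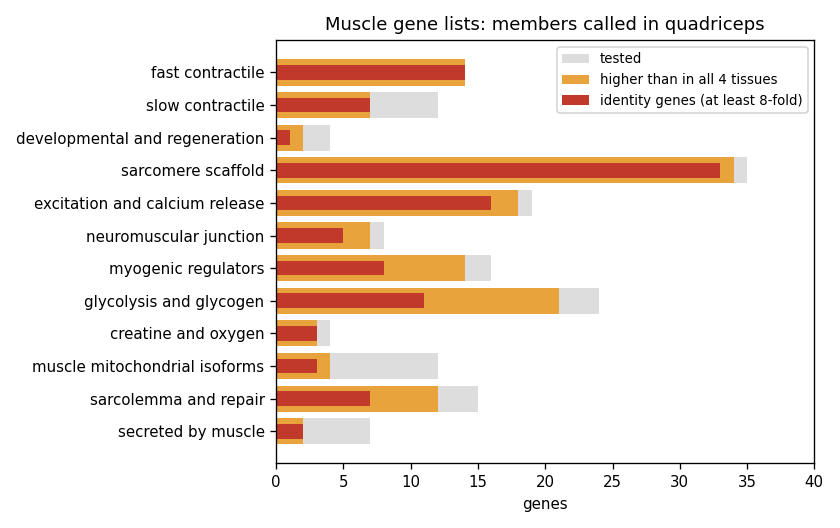
Number of genes (horizontal) of each of the 12 muscle lists that were tested (grey), higher in quadriceps than in all 4 tissues (orange) and identity genes (red). The bars coincide for the 14 fast contractile genes, and the grey part is longest for slow contractile genes (7 of 12 called), muscle mitochondrial isoforms (4 of 12) and secreted factors (2 of 7).

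Enzymes of glycogen use and the creatine system were mostly called. Among glycolysis and glycogen genes, 21 of 24 were higher in all 4 tissues and 11 were identity genes, with a median log2 fold change of 2.38 over the nearest tissue. Pygm, glycogen phosphorylase of muscle, stood at 12813, 14689 and 15353 CPM, Eno3 (beta enolase) at 8812, 10202 and 9155 CPM and Pgam2 (muscle phosphoglycerate mutase) at 2558, 3016 and 2788 CPM. Gapdh, used by every cell, was higher at 8521, 10029.8 and 9353 CPM than in brown fat at 2095, 3104 and 2338 CPM, a log2 fold change of 1.89 (SE 0.19, adjusted p = 9.7e-07). The margin over the nearest tissue was 7.53 for Pygm, 7.21 for Eno3 and 7.38 for Pgam2 on the same scale. Gpd1 and Gbe1 were lower than in brown fat, with log2 fold changes of -2.91 and -2.23, and Fbp2 was lower than in ileum, at -2.0. Ckm, cytosolic creatine kinase (chr7:19404776-19422841), stood at 31914, 35961 and 35442 CPM, Ckmt2, its mitochondrial partner, at 1896, 1998 and 2109 CPM, and Mb (myoglobin) at 2842, 2432 and 2594 CPM, all identity genes. Slc6a8, the creatine transporter, was highest in ileum at 842 ± 68.1 CPM and stood at 193 ± 24.01 CPM in quadriceps.

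The list of muscle mitochondrial isoforms was mostly not called. Of 12 genes tested, 4 were higher in all 4 tissues and 3 were identity genes, among them Cox6a2 (929.8, 862 and 868 CPM) and Slc25a4, the muscle ATP/ADP carrier (5022, 5165 and 5232 CPM). Cox7a1 and Cox8b, counted as striated muscle forms of cytochrome oxidase subunits, were higher in brown fat: Cox8b stood at 441, 420.4 and 357 CPM in quadriceps and 1464, 937 and 1119.5 CPM in brown fat, a log2 fold change of -1.53 (SE 0.33, adjusted p = 0.00108), and Cox7a1 gave -0.61 (SE 0.22, adjusted p = 0.0241). Ucp3, Fabp3, Pdk4, Hadh, Acadm and Chchd10 were not called higher in all 4 tissues either.

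At the fibre membrane, 12 of 15 genes were higher in all 4 tissues and 7 were identity genes. Sgca, a sarcoglycan of the dystrophin complex, was an identity gene at 242, 238 and 264 CPM. Dag1, dystroglycan, was nearly level with brown fat, at 429 ± 45.97 and 394 ± 4.95 CPM, Dtna with brain, at 117 ± 17.6 and 96.7 ± 7.28 CPM, and Sgcd missed the call against brown fat at 0.87 (SE 0.39, adjusted p = 0.0625). Of 7 secreted factors tested, 2 were identity genes. Mstn (myostatin, a brake on muscle growth) at 57.8, 94.7 and 77.1 CPM and Ostn (osteocrin) at 6.11, 5.84 and 6.02 CPM were called, and the other 5 were not identity genes. Fndc5, the irisin precursor, was at 110.4, 102 and 138 CPM, and brain held 66.4 ± 5.78 CPM. Metrnl, Il15 and Fam132b (erythroferrone) were highest in ileum, and Apln in brain. Fgf6 fell below the filter. Together the 12 muscle lists held 170 genes tested, of which 138 (81.2%) were higher in all 4 tissues and 110 (64.7%) were identity genes, with a median log2 fold change over the nearest tissue of 5.17 compared with -1.44 over all genes tested. The lists were drawn up from textbook muscle genes, so their direction is not independent evidence of the tissue.

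Outside every list stood 215 of the 330 identity genes. The 5 with the highest levels were Tpm2 (beta tropomyosin) at 8844, 8767 and 10769 CPM, Pde4dip (myomegalin) at 5600.2, 5749 and 8144 CPM, Ankrd23 (a titin-associated ankyrin protein) at 3711, 2865 and 4332 CPM, Mylk4 (a myosin light chain kinase family member) at 2623, 2858 and 2697 CPM and Zfp106 (an RNA-binding zinc finger protein) at 1769, 1763 and 2652 CPM. Tpm2 was nearest in ileum at 188 ± 75.1 CPM, and Zfp106 was near the limit with a log2 fold change of 3.06. With brown fat replicate 2 included, the widest margins belonged to genes with next to no counts elsewhere. The ranking depended on that library. Without it the log2 margins of Tnnt3 (14.51) and Myh4 (14.29) exceeded those of Hoxa10 (12.60), Kera (12.13) and Lbx1 (9.38), while Mettl21c stood at 14.42. Hoxa10, a homeobox gene of posterior body position, stood at 16.2, 15.8 and 16.1 CPM and had 0 counts in all 12 other libraries, as did Kera (keratocan, a matrix proteoglycan) at 11.7, 11.02 and 12.1 CPM. These 2 were the identity genes at 0 in all 4 tissues. Hoxa10 was at least 417-fold higher than in liver, the weakest of its 4 bounds, and Kera at least 302-fold. Hoxc10 at 104, 113 and 132 CPM, Mettl21c (a protein methyltransferase) at 85.9, 171 and 161 CPM, Nmrk2 (a nicotinamide riboside kinase) at 306, 374 and 526 CPM, Actc1 (cardiac actin) at 1205, 2018 and 1649 CPM and Mybph (a myosin-binding protein) at 367, 557 and 344 CPM were also among the 10 widest margins, with Cacng1, Myod1 and Lbx1. In brown fat 10 identity genes were at 0 counts, in brain 10, in ileum 55 and in liver 113.

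Identity genes lay near each other in places. Lying within 100 kb of another, 74 of those examined formed 33 groups. Genes without a matched position, and those on a chromosome left out beforehand, were not examined, so these counts do not cover the whole genome. The largest was the myosin cluster at chr11:67112461-67371586, with 2310065F04Rik, Myh2, Myh1, Myh4, Myh8 and Myh13, and the next was chr7:142441808-142578143, with Tnni2, Gm14492, Tnnt3, Nctc1 and H19. H19, an imprinted noncoding RNA, stood at 497, 567 and 667 CPM. Hoxa9 and Hoxa10 formed a pair, as did Hoxc9 and Hoxc10, Myoz1 and Synpo2l, and Capn3 and Zfp106. How many such groups a set of this size would form was not tested. The median exon length of identity genes was 2910 bases, compared with 4398.5 bases over the genes tested. Without knowledge of the strand used in counting, reads of overlapping or antisense partners cannot be told apart.

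None of the adipocyte (8 genes tested), brown adipocyte (5), hepatocyte (6), enterocyte (6), neuron (6), endothelial (6), immune (6) or red cell (2) markers was higher in all 4 tissues in edgeR, and since the largest log2 fold change over the nearest tissue among these 45 genes was 0.35 (Cd68), short of the fold limit, an unadjusted p would also call 0. The tendon markers Fmod, Thbs4, Comp and Tnmd, products of tendon rather than of the fibre, were all identity genes. Scx, also on that list, fell below the filter. Fmod stood at 278, 219 and 201 CPM and Thbs4 at 181, 142 and 145 CPM. Comp was at 25.5, 17.1 and 11.6 CPM and Tnmd at 13.2, 11.2 and 8.68 CPM. Of 6 fibroblast genes 4 were higher in all 4 tissues, among them Col1a1 at 495, 436 and 379.5 CPM and Dcn at 626, 503 and 316 CPM, and among the myelin genes Prx, a protein of the myelinating cells of peripheral nerve, was higher in all 4 tissues at 8.06, 5.42 and 10.4 CPM. Of 6 smooth muscle genes, Smtn (smoothelin) was higher in all 4 tissues and the other 5, Acta2, Myh11, Tagln, Cnn1 and Actg2, were not. With library size alone Smtn and Prx lost their calls, at 0.38 and 0.66. The whole-tissue sample thus included transcripts of tendon, connective tissue and nerve. Adipoq, the fat cell hormone adiponectin, stood at 85.6, 49.04 and 35.9 CPM, and Ucp1 at 9.22, 0.0969 and 1.65 CPM, both highest in replicate 1.

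Genes lower in quadriceps than in all 4 tissues numbered 826. The rule for naming genes picked Sgk2, Prss8, Tlr12, 5830416P10Rik and Zswim5 from fitted fold changes, which give no order here, since the first 4 had 0 counts in the quadriceps libraries and Zswim5 had 5. Sgk2, a kinase of epithelia, was at least 79.9-fold higher in brain, its nearest bound, and at least 4142-fold higher in liver. Prss8, an epithelial protease, was at least 7.10-fold higher in brain and at least 706-fold higher in ileum.

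Brown fat replicate 2 carried fibre transcripts that the other brown fat libraries nearly lacked. All 14 fast contractile genes stood there at 1.04 to 2.99% of their mean quadriceps level, with a median of 1.515%, compared with medians of 0.000696 and 0.00255% in replicates 1 and 3. Scaffold identity genes had a median of 2.30% and the 7 slow identity genes 7.33%, from 4.74% for Mybpc1 to 34.25% for Tnnt1, and Myh7 stood at 30.2%. The slow genes stood higher in it, relative to quadriceps, than the fast genes. Over the 330 identity genes the median was 2.24% in replicate 2, 0.0755% in replicate 1 and 0.0817% in replicate 3, and replicate 2 was the highest brown fat library for 299 of them (90.6%, compared with 33.8% of all genes tested). In 182 of the 330 (55.2%) it exceeded both other brown fat libraries by more than 10-fold, and the share of all genes is not given. No floor was set, so a gene at 0 in both others passed with any count. Of the 330, 107 were at 0 in replicate 1 and 89 in replicate 3. Without it, brown fat was the nearest tissue for 63 identity genes instead of 182, the median log2 fold change over the nearest tissue moved from 5.70 to 6.00, and that of the fast list from 7.49 to 13.57. The set itself hardly moved: 337 identity genes, 329 of them among the 330, with Myh7, Tnni1, Prrx1, Neurl2, Aldoart2, Gm16576 and Gm4841 among those added and Ccrl2 lost. A smaller trace was seen in brain replicate 1, where the fast genes had a median of 0.0148% of quadriceps. It was the highest brain library for 157 identity genes (47.6%, compared with 33.6% of all genes). Fitting each pair of tissues on its own gave 340 identity genes, 320 of them shared, but ended the calls of Myh4, Myh1, Atp2a1, Ttn, Tcap, Mybpc1, Myl2 and Tnnt1, although the fold changes stayed close to those above (7.54 for Myh4).

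**Figure D4:**
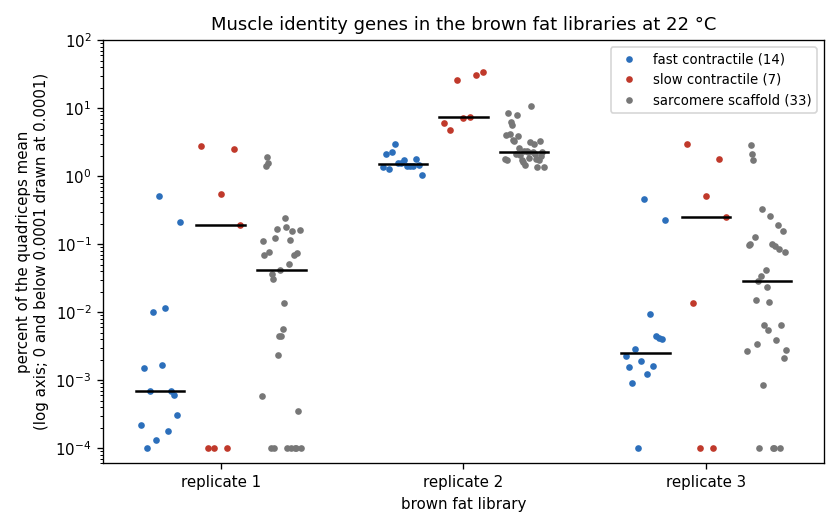
Level of identity genes in each brown fat library as a percent of the mean quadriceps level (log axis, lowest values drawn at its foot), with 1 point a gene and the list median as a bar, for the fast contractile (14 genes), slow contractile (7) and sarcomere scaffold (33) lists. In replicate 2 the medians are 1.515, 7.33 and 2.30%, and those of the other libraries lie far below.

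The spread among the quadriceps libraries was small for most members. The median coefficient of variation of the 330 genes over 3 libraries was 12.1%, and the highest library exceeded the lowest by more than 2-fold for 15 of them (4.55%, compared with 2.48% of the 9728 genes of at least 5 CPM). Among these 15 were Tnnc1, Tnnt1, Myl2 and Myl3 of the slow list, the tendon gene Comp, the receptor subunit Chrna1, the myosins Myh8 and Myh13, and Wisp2, Hmga2-ps1, Angptl7, Cilp2, Chac1 and Chad. Replicate 3 was the highest for 186 identity genes and replicate 1 the lowest for 207. The excess of replicate 3 grew with transcript length. For identity genes under 2000 exon bases its median ratio to the mean of the other libraries was 1.01, and for those from 2000 to 5000, 5000 to 10000 and over 10000 bases it was 1.09, 1.23 and 1.46. Over all genes of at least 10 CPM the same 4 medians were 0.926, 1.03, 1.10 and 1.16. The cause of this gradient, which the Ttn values follow, was not tested.

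The 3 RT quadriceps libraries kept out of the selection gave nearly the same set. With these in place of the first 3, against the same libraries of the other tissues, 353 genes were identity genes and 324 of the 330 were among them. The other 6 were 2310007L24Rik, A930003A15Rik, C130080G10Rik, Ctxn3, Mir133a-2 and Ostn. Identity genes took up 48.7 to 52.7% of counts in those libraries. Myh7 and Tnni1, missed in the first set, were identity genes in the second, with log2 fold changes of 4.29 and 4.09 over the nearest tissue. The other-tissue libraries are shared, so the overlap tests the quadriceps side only.

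With 3 libraries against 3, no identity gene passed an adjusted p of 0.05 in edgeR at either temperature. At 10 °C, 2 were lower at that threshold when all 6 RT quadriceps libraries were used, and 2 without 10 °C replicate 3. The criterion of the study was used here (p up to 0.05 before any adjustment, and more than 1.5-fold), with CPM scaled within each pair of groups. At 10 °C, 366 of all 11841 genes tested (3.09%) were higher than in the RT controls of that experiment and 88 (0.743%) lower, and of the 330 identity genes 0 were higher and 13 (3.94%) lower. DESeq2 gave 0 and 22. At an unadjusted p under 0.05 without the fold limit, 2 identity genes were higher and 54 lower. The share of all genes is not given for that count, nor for those of DESeq2. The lowest adjusted p of an identity gene was 0.0774. The fitted log2 fold change was below 0 for 271 of the 330, with a median of -0.22, and the median of all genes was 0.025. With library size alone these medians were 0.0017 and 0.252, so the identity genes stood lower than all genes under both scalings but not below 0 under the second. DESeq2 put 12 of its 22 under an adjusted p of 0.05. Nmrk2 stood at 296, 184 and 272 CPM at RT and 70.3, 57.4 and 34.5 CPM at 10 °C, a log2 fold change of -2.21 (SE 0.29, adjusted p = 0.0774). Chac1, a glutathione-degrading enzyme, gave -1.81 (SE 0.38, adjusted p = 0.225) and Sbk2 -1.25 (SE 0.32, adjusted p = 0.331). The groups did not overlap for these 3 genes, nor for many others. For 80 of the 330 identity genes every 10 °C library lay below every RT library, and the share of all genes is not given. Tcap stood at 1986, 2037 and 2178 CPM at RT and 1224, 1232 and 1399 CPM at 10 °C, -0.69 (SE 0.15, adjusted p = 0.235), again without overlap. Six2, 1700001O22Rik, Cited4, Fhl3, Il12a, Des, Eda2r, Cacng1 and Hhatl were the others past the criterion. With library size alone the count was 2 higher and 3 lower, and without RT replicate 1 it was 9 lower and without 10 °C replicate 3 it was 31 lower. Beside these values, the 5 brown adipocyte genes took up 0.00804 to 0.0240% of counts at 10 °C and 0.002385 to 0.00393% at RT, and the 8 adipocyte genes 0.0722 to 0.192% and 0.0557 to 0.0742%. Their part in the share of identity genes, 41.5 to 49.4% at 10 °C and 48.7 to 52.7% at RT, was not tested.

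At 34 °C, 34 of 11752 genes (0.289%) were higher and 108 (0.919%) lower than in the RT controls, which here are the libraries that chose the identity genes. Of the 330, 1 was higher and 3 were lower, and 0 passed the adjusted p in edgeR. Ctnna3, an alpha catenin, stood at 9.73, 10.6 and 14.6 CPM at RT and 18.9, 17.8 and 15.6 CPM at 34 °C, a log2 fold change of 0.59 (SE 0.16, adjusted p = 1). Smox (spermine oxidase) stood at 514, 1012 and 694 CPM at RT and 470.0, 275 and 461 CPM at 34 °C, -0.88 (SE 0.28, adjusted p = 1), and Hmga2-ps1 and Htra4 were the others lower. The median log2 fold change of identity genes was 0.065, and of all genes -0.0004. Of the single libraries left out, RT replicate 3 raised the count to 12 higher and RT replicate 1 to 3 higher, and leaving out 34 °C replicate 1 gave 2 higher and 6 lower, replicate 2 gave 2 higher and 4 lower, and replicate 3 gave 4 higher and 5 lower. Myh4 did not pass at either temperature, with -0.26 (SE 0.43, adjusted p = 0.805) at 10 °C and 0.07 (SE 0.24, adjusted p = 1) at 34 °C. A test of the difference between the responses, on 12 libraries, gave an adjusted p under 0.05 for 2 of the 330, Tcap at -1.07 (adjusted p = 0.0262) and Asb11, a muscle ubiquitin ligase subunit, at -0.66 (adjusted p = 0.0384), both in the direction of lower at 10 °C and higher at 34 °C, and 76 had an unadjusted p under 0.05. The share of all genes under that unadjusted p is not given. The 2 experiments used separate mice and suppliers, and experiment and temperature cannot be told apart in the difference between the responses.

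**Figure D5:**
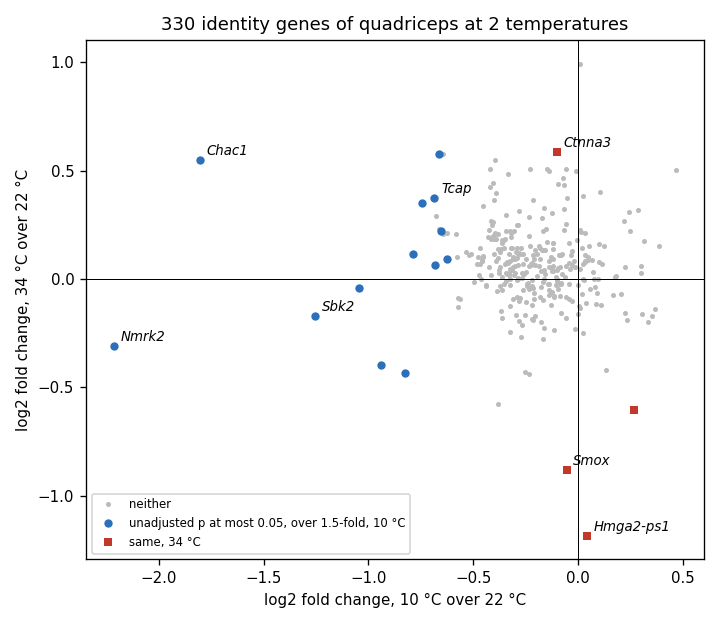
Log2 fold change of each identity gene at 10 °C (horizontal) and at 34 °C (vertical) against the RT quadriceps libraries of the same experiment, with 1 point a gene and those past the study's criterion at 10 °C (blue circles) or 34 °C (red squares) marked. Most points lie within 1.5-fold on both axes (312 of 330 at 10 °C and 325 at 34 °C), and Nmrk2 at -2.21 lies farthest left.

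Beyond the 5 organs, identity genes were looked up in 10 further RT groups of the series, in CPM by library size, where 311 to 330 of them could be matched. The mice of these 10 groups were labelled as younger than those of the 15 libraries compared. The part of age was not tested. Most of these groups were also sequenced elsewhere with another kit, so levels set across them are side by side only. The identity genes took up 3.14 to 4.46% of counts in brown fat from that second set, with Myh4 at 2373 to 3020 CPM, and 0.846 to 1.38% in subcutaneous fat, with Myh4 at 370.0 to 1139 CPM. In brain, hypothalamus, ileum, liver, spleen, visceral fat, bone marrow and spinal cord the share was 0.142 to 0.7235%, and Myh4 was at 0 in all 3 spleen libraries. In that brown fat, Tnnt1, Myl2 and Tnnc1 stood at 217, 167 and 167% of their quadriceps level. Of the 330 genes, 147 were above 12.5% of their quadriceps level in at least 1 further group. The other 183 were not above it in the groups where they could be matched. In spinal cord Hoxa9 stood at 525.5% of quadriceps, Chodl at 459% and Hoxa10 at 247%, and in bone marrow Rbm38 stood at 317%, Ank1 at 202% and Rcsd1 at 195%. Hist1h1e, a histone gene, was above its quadriceps level in every tissue of the second set. Of the 311 genes matched, 87 were above 12.5% of their quadriceps level in the brown fat of the second set. The counts were 47 in its brain, 22 in its ileum and 6 in its liver, organs that the comparison itself held. Identity here therefore means identity among the 15 libraries compared.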

How the data were processed

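The authors prepared poly(A) libraries with a stranded kit, sequenced them as single reads of 50 bases, aligned them to mm10 with STAR and counted reads per gene with HTSeq. The submitters' processing notes name STAR 2.5.3a, Picard 1.141 and HTSeq 0.6p1, while the strand setting and the annotation release are not given in the sources used here. The deposited values are raw counts per gene symbol for 23393 genes, with no normalization and no row that names no gene. Column names give tissue and temperature, so libraries were mapped to groups, and 47 of 106 library columns were not used. The quadriceps columns compared share a prefix with the 34 °C libraries, so they are the controls of that experiment.

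Counts of 15 libraries were fitted in 1 model in edgeR 4.0.16 (R 4.3.3) with TMM scaling and the quasi-likelihood test, keeping genes with an average log2 CPM above 0. P-values were adjusted by Benjamini-Hochberg within each of 4 contrasts. The SE printed with a log2 fold change is its absolute value divided by the square root of the test's F statistic. The script was tested on simulated counts. Totals were 29545458 to 62880248 counts a library. Against a group at 0, folds are bounds from a floor of 3 counts over the group. Gene positions came from GENCODE M21, which matched 22983 symbols (1271 through an older symbol), and promoters from RefSeq. No 2 libraries held identical counts. The members, gene lists and alternatives were chosen with earlier results of these data known. Named genes are the up to 4 members of each list with the highest level per length, the members not called where 5 or fewer, all myogenic regulators, and, over all genes, the 10 widest margins, the 10 highest levels, the 5 highest outside the lists, the 5 deepest fitted falls, the 5 largest called changes in each direction per temperature and the extremes in brown fat replicate 2. The myosin set, neighbouring groups, further tissues and most variable genes were singled out after their values were seen. Some genes that this rule names are not reported here. Alternatives were library-size scaling, DESeq2 1.42.0, other filters on low counts, separate fits, other fold limits and leaving out each library.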

Additional observations from a re-analysis of the deposited data

Results flagged for a closer look

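Over the 6 RT quadriceps libraries, 98 list totals and named genes were looked at for 1 library far from the other 5, and 14 passed. Chance gives about 1 in 20 for independent values. These were not independent, since list totals contain named genes and all values of a library share its composition, so the count is a description only. Levels in this paragraph are counts or shares by library size. Of the 14, 11 were set by replicate 1 of the second RT set, the controls of the 10 °C experiment. That library was the highest or lowest for Acta1 (56979 CPM), Ckm (33276 CPM), Des (4999 CPM), Hoxc10 (117.8 CPM), Pygm (12829 CPM), Sbk2 (69.3 CPM), Sgca (246 CPM) and Tpm2 (9396 CPM), for the creatine and oxygen list (3.73% of counts), for the secreted list (0.0143%) and for the enterocyte markers (0.000245%). It is 1 of the 3 controls behind every 10 °C value, and without it 9 identity genes passed the criterion for lower at 10 °C, compared with 13. In the first RT set, replicate 1 stood apart in adipocyte markers (0.126%), and replicate 2 in myelin markers (0.00571%) and Myod1 (23.2 CPM).

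The response of 2 identity genes differed between the 10 °C and 34 °C experiments, in which experiment and temperature cannot be told apart. The log2 fold change at 10 °C minus that at 34 °C was -1.07 for Tcap and -0.66 for Asb11, by the test of the difference in edgeR.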

How the results depend on the processing

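Leaving out each library in turn kept the following counts of the tissue comparison within 1.5 times, whereas the identity genes nearest to brown fat fell from 182 to 63 without brown fat replicate 2. Identity genes numbered 311 to 337, genes higher in all 4 tissues 1307 to 1377, genes lower in all 4 tissues 773 to 846 and muscle-list genes called 133 to 140. Against brown fat 3955 to 4169 genes were higher and 3855 to 4022 lower, against brain 4988 to 5146 and 5401 to 5579, against ileum 5360 to 5478 and 5467 to 5599, and against liver 5052 to 5207 and 4593 to 4700. At the temperatures, 0 to 1 identity genes were higher and 9 to 31 lower at 10 °C, and 1 to 12 higher and 2 to 6 lower at 34 °C.

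Library-size scaling gave 2568 higher and 6272 lower against brown fat, 2607 and 8721 against brain, 751 higher and 1599 lower in all 4, 2 higher and 3 lower at 10 °C and 0 higher at 34 °C. It put the fast list in brown fat replicates 1 to 3 at 0.00103, 2.15 and 0.00377% of quadriceps and the identity genes at 0.111, 3.18 and 0.120%, and turned Mef2a to -0.261 and Mef2c to -0.0396. DESeq2 called 250 identity genes and gave no adjusted p for 65 of the 80 others. With its outlier and independent filters off, chosen after seeing this, it called 314. It called 22 identity genes lower at 10 °C. At an adjusted p under 0.05, 0 identity genes were lower at 10 °C, 0 higher at 34 °C and 0 lower there. All 6 RT libraries gave 1 higher at 10 °C, and 3 higher and 5 lower at 34 °C. A looser filter gave 390 identity genes and no filter 416, while fold limits of 4 and 16 gave 488 and 259. The cause of these shifts was not tested. No paired analysis was possible because the columns compared carry no replicate numbers in the labels that link the tissues. Pools of 2 mice or single mice and 3 libraries a tissue limit precision, and symbol-level counts cannot separate paralogues.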
